A study of Mus musculus with 22 samples.

Results

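The Rhox, Magea, Mageb and Xlr families are groups of tandemly duplicated genes that sit almost entirely on the mouse X chromosome. Members were taken by symbol, as every gene whose name begins with Rhox, Magea or Mageb and a digit, or with Xlr. The rule gave 82 of the 34866 gene identifiers in the tables of cultured chondrocytes, namely 42 Rhox, 10 Magea, 14 Mageb and 16 Xlr genes, of which 59 are annotated as protein coding and 23 as pseudogenes. In the whole-number cartilage table, which lists genes with at least 1 count, 28 of 23911 identifiers were members. On the build GRCm38, the 42 Rhox genes form 1 cluster on chromosome X at 37213804 to 38306028. The gene Xlr lies at 53777118 to 53797706, and the 9 other protein-coding Xlr genes (Xlr3a to Xlr3c, Xlr4a to Xlr4c and Xlr5a to Xlr5c) lie at 73074345 to 73292976. The 6 Magea genes at 154924012 to 155093666 hold Magea1, 2, 3, 5, 6 and 8. Of the 82 members, 80 are on chromosome X, and the exceptions are Mageb3 on chromosome 2 and the pseudogene Mageb16-ps2 on chromosome 6.

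Messenger RNA was measured in 22 mouse samples in 6 groups, in controls that carry a floxed Dnmt1 gene without Cre and in conditional knockouts (cKO; Prrx1-Cre, Dnmt1 flox/flox). Prrx1-Cre acts in limb mesenchyme, so in other cells of a sample Dnmt1 is not the target of the deletion. Primary chondrocytes were grown from knee cartilage of mice at postnatal days 3 to 5 and sampled untreated (day 0; 3 control and 3 cKO) or after 3 days (day 3; 4 control and 4 cKO) with BMP2, a bone morphogenetic protein whose dose the labels write as 100 ng/µl. Cartilage was taken at postnatal day 5 and digested with collagenase (4 control and 4 cKO; in each genotype replicates 1 and 2 were male, and 3 and 4 female). No label says which replicates came from separate animals, so p-values measure the spread between these samples.

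Rhox genes encode homeodomain transcription factors of testis, epididymis, ovary and placenta, and repeated duplication of a Rhox2, Rhox3 and Rhox4 unit has enlarged the mouse cluster. Magea and Mageb genes belong to the melanoma antigen (MAGE) family, whose proteins bind RING-type ubiquitin ligases; these clusters are transcribed in male germ cells and are silent in most other adult tissues. Xlr genes, named for X-linked lymphocyte-regulated genes, are relatives of the synaptonemal complex gene Sycp3, and the Xlr3, Xlr4 and Xlr5 copies lie together. Dnmt1 copies DNA methylation to the new strand after replication, and promoters of many germline genes are methylated in somatic cells.

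To show how alike the copies are at their promoters, the 250 bases upstream of 8 RefSeq gene starts on GRCm38.p6 are given 5′ to 3′ on the strand of the gene, in lower case with the C and G of each CpG in capitals. Rhox2a (chrX:37244742-37244991, plus strand) and Rhox2d (chrX:37493160-37493409, plus) stand for the most abundant Rhox2 copies. Rhox4b (chrX:37432244-37432493, plus) and Rhox4g (chrX:37651328-37651577, minus) are a pair that differed in the genotype test. Xlr3b (chrX:73191929-73192178, plus) and Xlr3c (chrX:73265391-73265640, minus) are a pair that differed in control cells. Rhox5 (chrX:37754358-37754607, plus) differed between cultures and cartilage; its RefSeq start lies 50.2 kb upstream of the gene model used here. Magea8 (chrX:154995851-154996100, minus) stands for the Magea copies.
Rhox2a: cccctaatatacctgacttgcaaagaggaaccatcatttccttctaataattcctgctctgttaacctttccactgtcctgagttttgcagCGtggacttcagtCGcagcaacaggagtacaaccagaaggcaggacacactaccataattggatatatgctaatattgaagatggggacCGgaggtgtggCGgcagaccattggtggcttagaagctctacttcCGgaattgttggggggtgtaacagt
Rhox2d: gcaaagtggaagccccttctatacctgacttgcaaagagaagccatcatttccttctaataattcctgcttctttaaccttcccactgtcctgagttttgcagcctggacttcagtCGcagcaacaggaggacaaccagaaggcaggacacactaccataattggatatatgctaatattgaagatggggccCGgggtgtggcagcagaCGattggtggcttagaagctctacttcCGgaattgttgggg
Rhox4b: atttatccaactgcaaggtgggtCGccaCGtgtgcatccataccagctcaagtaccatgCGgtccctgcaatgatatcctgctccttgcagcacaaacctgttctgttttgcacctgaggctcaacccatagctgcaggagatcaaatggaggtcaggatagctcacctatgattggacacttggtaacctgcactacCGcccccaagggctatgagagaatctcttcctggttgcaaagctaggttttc
Rhox4g: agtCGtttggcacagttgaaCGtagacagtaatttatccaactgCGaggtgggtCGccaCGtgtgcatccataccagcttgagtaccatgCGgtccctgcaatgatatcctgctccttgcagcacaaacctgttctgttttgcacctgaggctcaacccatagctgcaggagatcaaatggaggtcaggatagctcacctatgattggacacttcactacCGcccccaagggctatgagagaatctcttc
Rhox5: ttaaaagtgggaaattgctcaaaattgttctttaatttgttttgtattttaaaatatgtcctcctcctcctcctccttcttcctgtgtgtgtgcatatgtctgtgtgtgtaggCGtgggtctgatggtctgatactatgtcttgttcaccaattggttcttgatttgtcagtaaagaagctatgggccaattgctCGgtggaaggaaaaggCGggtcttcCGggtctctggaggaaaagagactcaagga
Xlr3b: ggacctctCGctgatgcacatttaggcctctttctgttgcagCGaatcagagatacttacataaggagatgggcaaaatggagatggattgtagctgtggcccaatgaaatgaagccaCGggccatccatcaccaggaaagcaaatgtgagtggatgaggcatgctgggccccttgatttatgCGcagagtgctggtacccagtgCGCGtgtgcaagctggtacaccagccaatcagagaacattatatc
Xlr3c: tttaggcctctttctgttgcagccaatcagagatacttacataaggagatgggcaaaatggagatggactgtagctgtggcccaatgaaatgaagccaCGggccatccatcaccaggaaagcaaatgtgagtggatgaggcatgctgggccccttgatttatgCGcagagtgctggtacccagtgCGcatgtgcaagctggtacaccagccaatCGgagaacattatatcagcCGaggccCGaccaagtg
Magea8: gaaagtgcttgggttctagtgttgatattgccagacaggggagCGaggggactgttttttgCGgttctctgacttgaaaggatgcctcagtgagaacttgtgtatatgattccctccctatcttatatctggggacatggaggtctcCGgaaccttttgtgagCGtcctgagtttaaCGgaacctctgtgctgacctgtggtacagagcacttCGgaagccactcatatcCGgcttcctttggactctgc

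Windows of sister copies were close to identical over their aligned bases, with gaps and unaligned ends left out of the count. The Rhox2a window matched that of Rhox2d at 95.8% of 237 aligned bases, that of Rhox2b at 100% of 228 and those of Rhox2c and Rhox2e at 99.6% of 250 each. Rhox4b and Rhox4g shared 98.6% of 219 aligned bases, and Xlr3b and Xlr3c 98.3% of 230. The Magea copies were less alike, with 91.9% of 235 aligned bases shared by Magea2 and Magea8 and 72.6% of 215 by Magea5 and Magea8. RefSeq held an upstream window for 53 of the 82 members, and the median number of CpG sites in it was 4 (0 to 14), against a median of 6 (quartiles 2 and 16) in 32851 windows of all genes. By family the median was 4.5 in 28 Rhox, 0.5 in 8 Magea, 3 in 6 Mageb and 6 in 11 Xlr windows.

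4 short motifs, chosen after the sequences were seen, were searched on both strands, and matches of different motifs overlapped in 0 of the 53 member windows. The ETS core CCGGAA was found in 14 of 53 member windows, against 12% of all windows; it was present in Rhox2a to Rhox2e, Rhox2g, Rhox2h, Rhox5, Magea2, Magea8, Xlr4a, Xlr4b, Xlr5a and Xlr5b. The E-box CACGTG was found in 5 member windows, all of Rhox4 copies, against 6.02% of all windows. CCAAT was found in 29 member windows (33.8% of all windows) and the E2F site TTCCCGC in 2, those of Xlr and Rhox11-ps2 (3.82% of all). Copies share ancestry, so these counts are not independent of one another, and a match is a description of the letters.

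Total counts per library were 41749546 to 51741669 in day 0 cultures, 14434320 to 18918905 in day 3 cultures and 1100198 to 1888896 in cartilage. Dnmt1 was lower in every cKO library: 159, 147 and 148 CPM (counts per 1000000 of the library size scaled by TMM) in day 0 controls against 26.3, 25.7 and 31.3 in cKO (log2 fold change −2.44, SE 0.0718, edgeR quasi-likelihood adjusted p 1.62e-08). At day 3 the log2 fold change was −1.41 (SE 0.314, edgeR adjusted p 0.00625) and in cartilage −1.66 (SE 0.201, edgeR adjusted p 6.34e-05), where the estimated counts gave −0.78. The chondrocyte collagen gene Col2a1 was abundant in the controls, at a mean of 99300 CPM at day 0, 73500 at day 3 and 57000 in cartilage, and at 41500, 8390 and 32200 in cKO; the difference was called in the cultures and not in cartilage (adjusted p 0.0822 by edgeR). Replicate 4 of the day 3 cKO cultures stood apart with 750 CPM of Col2a1. All cartilage controls were in 1 library pool and all cartilage cKO libraries in the other, so pool and genotype cannot be told apart there.

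With more than 3 counts in a library taken as detection, 14 of the 82 members were detected in at least 1 day 0 control library and 58 in at least 1 day 0 cKO library. At day 3 the numbers were 10 in control and 48 in cKO, and in cartilage 1 in control and 9 in cKO. Counting members above 3 counts in every library of the group gave 7 and 45 at day 0, 3 and 32 at day 3, and 0 and 3 in cartilage. In the controls detection rested on the Xlr and Rhox families: at day 0 6 Rhox, 7 Xlr, 1 Mageb and 0 Magea genes passed in at least 1 library. In day 0 cKO cultures the counts by family were 29 of 42 Rhox, 7 of 10 Magea, 11 of 14 Mageb and 11 of 16 Xlr. 10 members had 0 counts in all 22 libraries, among them Magea1 and Mageb5, and 11 more never had more than 3.

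The summed level of all 82 members was 13.4, 11.6 and 10.1 CPM in the day 0 controls and 206, 193 and 191 CPM in cKO. At day 3 the sums were 18.2, 6.46, 19.9 and 23.5 CPM in control against 192, 213, 196 and 209 in cKO. The groups were far apart in both settings, and the cKO mean was 197 ± 8.36 CPM (SD, n = 3) at day 0 and 203 ± 9.72 CPM (SD, n = 4) at day 3. In controls nearly all of this was Xlr RNA (10.8 ± 1.78 CPM of 11.7 ± 1.66 at day 0, SD, n = 3). In cKO cultures the Xlr family made up 56.4% of the members' CPM at day 0 and 65.9% at day 3, and the Rhox genes 35.6% and 20.7%. In bulk RNA, more cells with a transcript and more transcript per cell cannot be told apart.

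The expression filter passed 40 members at day 0 and 26 at day 3. Of the 40, 39 were called higher in cKO and 0 lower, beside 33.0% higher and 31.6% lower calls over all 15530 genes. At day 3 26 of 26 were called higher and 0 lower, against 25.5% higher and 22.6% lower of 13924 genes. Most of these members passed the filter through their cKO libraries. Only Xlr, Xlr3a, Xlr3b and Xlr4a at day 0, and Xlr3a and Xlr3b at day 3, would have passed in the controls alone. The counts of calls are therefore a description, and so are the genotype p-values given below for members that passed only through cKO. Without the filter, 50 of 70 members with a count were called higher and 0 lower at day 0 (21.6% and 20.3% of 24597 genes) and 39 of 64 higher and 0 lower at day 3 (16.7% and 13.5% of 22836 genes). The members' own counts follow family by family. Where the controls were all at 0 the fold is a lower bound against 3 counts over the control group, and elsewhere the ratio of pooled CPM is given with an exact 95% binomial interval; both cover counting error only.

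**Figure D1:**
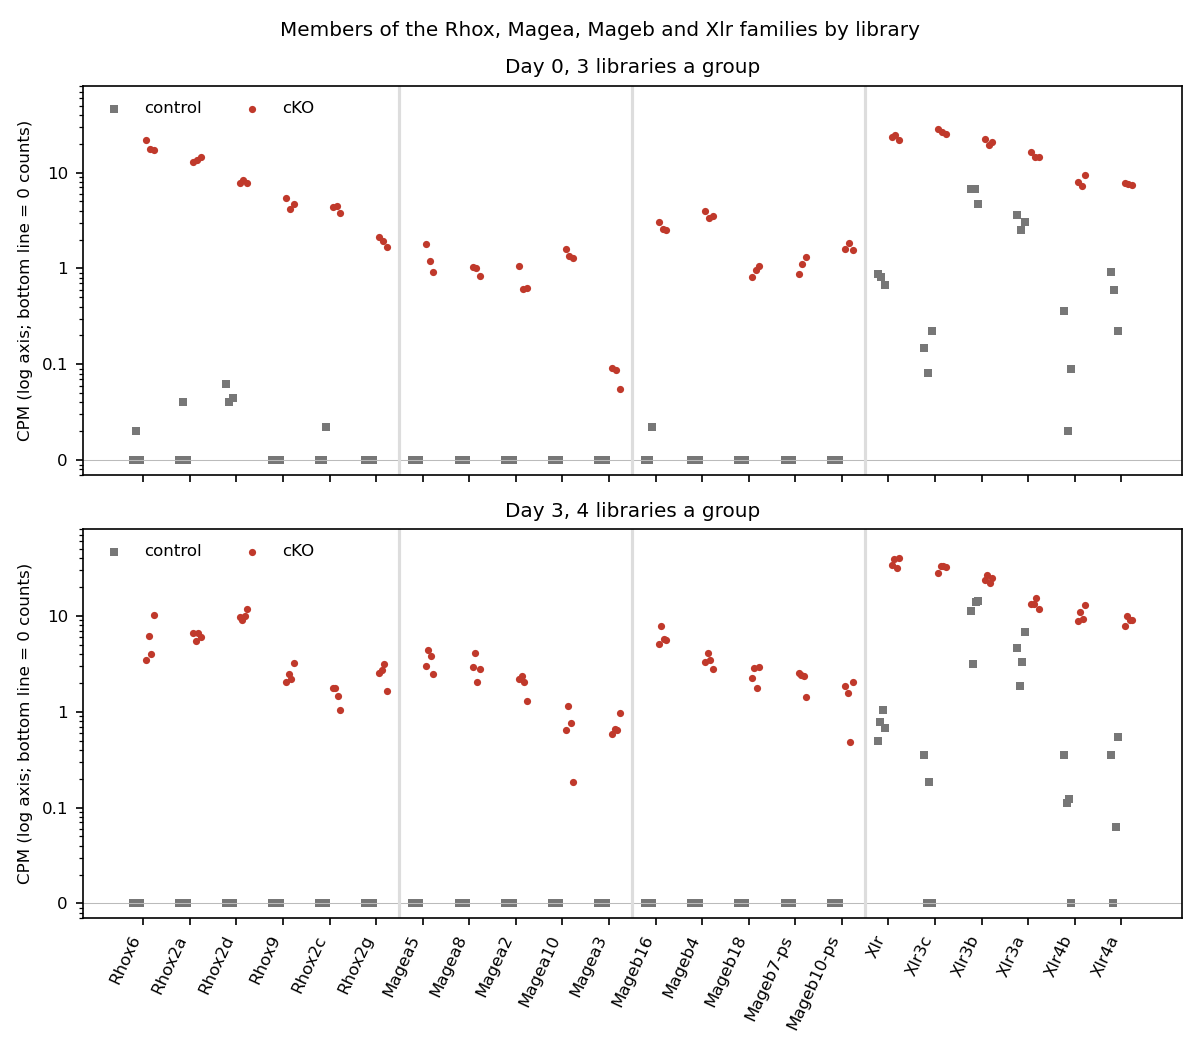
CPM of 22 members, up to 6 per family taken by number of calls and then mean CPM, on a log axis, in each control library (grey squares) and cKO library (red circles) of the day 0 and day 3 cultures; points on the bottom line have 0 counts. The cKO points of each gene lie above its control points at both days, and the 5 Magea genes have 0 counts in every control culture.

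Rhox6 and Rhox9, homeobox genes known from primordial germ cells and placenta, were detected in every cKO culture. Rhox6 (chromosome X, 37826910 to 37829857) had 0, 0.0203 and 0 CPM in day 0 controls and 21.9, 17.6 and 17.0 CPM in cKO. A single count over 3 control libraries carries that ratio, 2660 (476 to 105000), with an edgeR adjusted p of 1.04e-08. At day 3 Rhox6 had 0 counts in the 4 controls and 3.50, 6.11, 3.99 and 10.2 CPM in cKO, at least 123-fold higher (edgeR adjusted p 0.000555). The highest cKO value was that of replicate 4, the culture with little Col2a1. Rhox9 (chromosome X, 37899097 to 37901770) had 0 counts in all 7 control cultures, 5.41, 4.14 and 4.68 CPM in day 0 cKO and 2.04, 2.47, 2.21 and 3.19 CPM in day 3 cKO. These are at least 224-fold and at least 51.8-fold higher, with edgeR adjusted p of 8.78e-07 and 0.000166.

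The Rhox2 copies, known from placenta and testis, were led per length by Rhox2a and Rhox2d. Rhox2a (chromosome X, 37244976 to 37249686) had 0, 0.0406 and 0 CPM in day 0 controls against 12.8, 13.6 and 14.4 CPM in cKO (ratio 970, 268 to 8010; edgeR adjusted p 1.68e-08). At day 3 it had 0 counts in the controls and 6.64, 5.45, 6.69 and 6.0 CPM in cKO, at least 130-fold higher (edgeR adjusted p 3.38e-05). The cKO libraries of a day were close to each other, and the groups did not overlap. Rhox2d (chromosome X, 37493428 to 37497623) had 0.0629, 0.0406 and 0.0443 CPM in day 0 controls against 7.85, 8.36 and 7.81 CPM in cKO, a ratio of 162 (78.6 to 405) and log2 fold change 7.27 with SE 0.176 (adjusted p 4.32e-09 by edgeR). At day 3 Rhox2d had 0 counts in the controls and 9.67, 8.98, 9.87 and 11.8 CPM in cKO, at least 211-fold higher.

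Rhox2c had 0, 0 and 0.0221 CPM in day 0 controls against 4.40, 4.49 and 3.8 CPM in cKO, and 1.75, 1.77, 1.46 and 1.04 CPM in day 3 cKO against 0 counts in controls. Rhox2g had 0 counts in the 7 control cultures, 2.12, 1.91 and 1.69 CPM in day 0 cKO and 2.56, 2.73, 3.13 and 1.65 CPM in day 3 cKO. Both were called higher in cKO at both days. Rhox2b, Rhox2e, Rhox2f and Rhox2h were also called at day 0, at cKO means of 3.44, 1.61, 1.69 and 0.633 CPM. Reads can fall on any of these copies, since the transcript of Rhox2a matches that of Rhox2e at 97.2% of its 795 bases. The sum over the 8 Rhox2 copies does not depend on how reads were shared among them: it was 0.0629, 0.142 and 0.0664 CPM in day 0 controls, 34.4, 35.4 and 35.5 in day 0 cKO, 0 counts in day 3 controls and 25.8, 22.9, 26.9 and 24.1 in day 3 cKO.

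The Rhox4 copies were detected in controls at a low level. Together the 8 copies had 0.357, 0.345 and 0.598 CPM in day 0 controls against 6.59, 7.72 and 6.46 in cKO, and 0.351, 0.390, 0.867 and 0.811 in day 3 controls against 6.35, 4.79, 5.88 and 5.76 in cKO. Single copies differed: Rhox4a, Rhox4a2, Rhox4d, Rhox4e and Rhox4g were called higher at day 0, and Rhox4b was the 1 tested member that was not. Rhox4b had 0.252, 0.183 and 0.310 CPM in control and 0.437, 0.308 and 0.0928 CPM in cKO, with overlapping groups (log2 fold change 0.13, SE 0.512, edgeR adjusted p 0.837), and its sign turned to −0.34 without cKO replicate 1 and −0.05 without control replicate 2. By transcript the copy nearest to Rhox4b was Rhox4d, at 99.7% of 1808 aligned bases, and Rhox4g matched Rhox4b at 97.1% of 1833. Rhox4g had 0.0210, 0.0203 and 0.111 CPM in control against 1.66, 1.58 and 1.17 CPM in cKO (log2 fold change 4.82, SE 0.44, edgeR adjusted p 1.31e-05). The promoter windows of Rhox4b and Rhox4g matched at 98.6% of 219 aligned bases, gaps not counted, and hold 4 CpG sites in Rhox4b and 7 in Rhox4g. How reads were split between near-identical copies is uncertain. In day 3 cKO replicates 1 to 4 Rhox4a had 30, 13, 1 and 33 counts and Rhox4a2 19, 35, 42 and 1, while the sum over the 8 Rhox4 copies was steadier at 109, 95, 109 and 94 counts.

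Other Rhox genes varied. The 7 protein-coding Rhox3 copies summed to 0.444 ± 0.128 CPM (SD, n = 3) in day 0 cKO and 0.111 ± 0.0756 CPM (SD, n = 4) at day 3. Rhox1, at the low-coordinate end of the cluster, had 0 counts in control cultures and 2.67, 2.07 and 2.30 CPM in day 0 cKO (at least 111-fold higher). Rhox10, a gene of spermatogonia, reached 0.299, 0.462 and 0.501 CPM in day 0 cKO against 0.0210, 0 and 0.0221 in control and was called higher (edgeR adjusted p 0.000116). Rhox8, known from Sertoli cells, had 0.105, 0.0203 and 0.177 CPM in day 0 controls and 0.184, 0.176 and 0.260 CPM in cKO. It did not pass the filter, and without the filter its adjusted p was 0.218 by edgeR. Rhox11, Rhox12 and Rhox13 never exceeded 3 counts in a culture.

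Levels of different genes were compared per length, as RPKM, which is CPM divided by the annotated exon length in kilobases, in the culture libraries. In day 0 cKO Rhox6 had 18.7 ± 2.64 RPKM (SD, n = 3), Xlr3c 16.9 ± 1.01, Rhox2a 16.1 ± 0.92, Rhox2d 11.7 ± 0.448 and Xlr 10.0 ± 0.674. Rhox6, Xlr3c and Rhox2a did not differ beyond their spread. At day 3 the order was Xlr3c at 19.9 ± 1.67 RPKM (SD, n = 4), Xlr at 15.5 ± 1.76, Rhox2d at 14.7 ± 1.78, Rhox2a at 7.34 ± 0.695, Xlr3b at 6.46 ± 0.529 and Rhox6 at 5.88 ± 3.01. Xlr and Rhox2d could not be separated there, nor could Rhox2a, Xlr3b and Rhox6. Along the cluster the copies alternate: Rhox2 copies ranged from 0.804 (Rhox2h) to 16.1 RPKM in day 0 cKO and from 0.933 (Rhox2f) to 14.7 at day 3, while Rhox3 copies had no more than 0.306 RPKM and Rhox4 copies no more than 1.44 RPKM. The ranges of Rhox2 and Rhox4 copies overlapped.

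**Figure D2:**
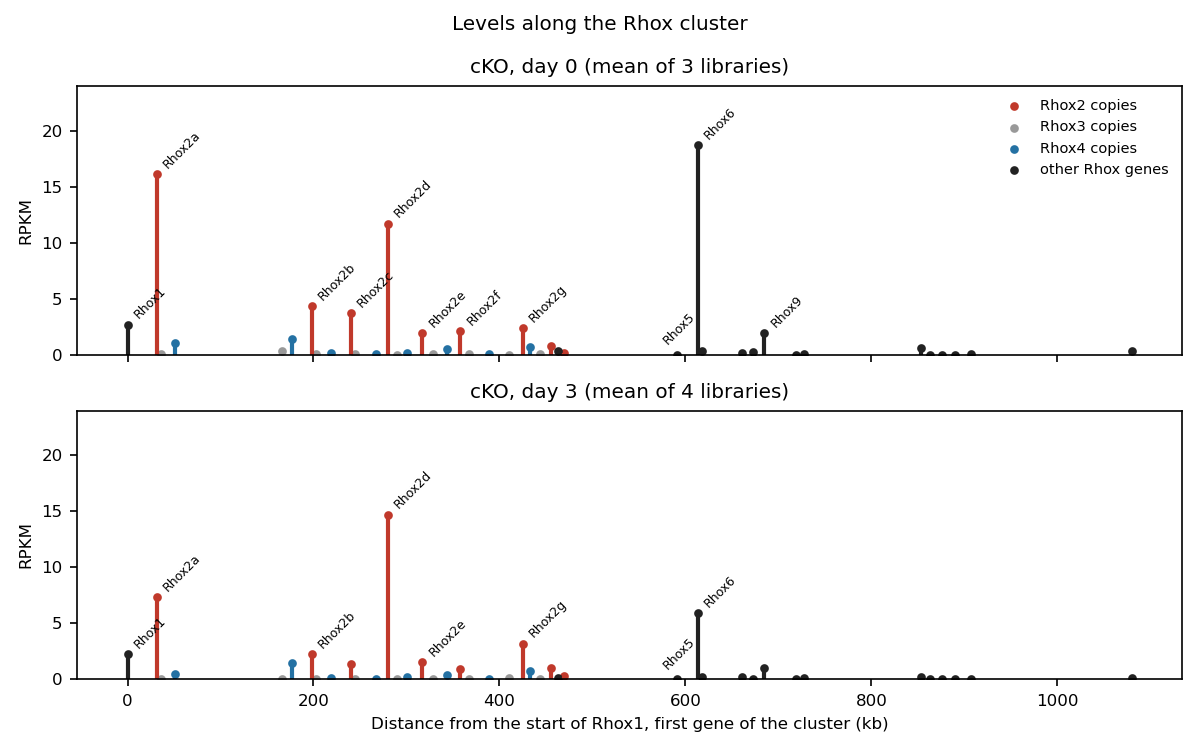
Mean RPKM of each Rhox gene in cKO cultures against its distance in kb from the start of Rhox1, at day 0 (3 libraries) and day 3 (4 libraries), coloured by copy type. Rhox2a, Rhox2d and Rhox6 rise above the others at both days, at 16.1, 11.7 and 18.7 RPKM at day 0, and Rhox5 is at 0.

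Magea genes are transcribed in male germ cells. They had 0 counts in every control culture at both days, for all 10 members. Magea5 (chromosome X, 155053061 to 155063145) had 1.80, 1.19 and 0.909 CPM in day 0 cKO and 2.97, 4.44, 3.77 and 2.45 CPM in day 3 cKO, at least 60.0-fold and at least 72.9-fold higher. Magea8 had 1.04, 1.01 and 0.835 CPM in day 0 cKO and 2.91, 4.14, 2.05 and 2.76 CPM at day 3, and Magea2 had 1.06, 0.616 and 0.631 CPM and then 2.21, 2.37, 2.05 and 1.29 CPM. Their edgeR adjusted p against control ran from 1.74e-05 (Magea8, day 0) to 0.000308 (Magea2, day 3), and none of the 7 cKO cultures was at 0 for these genes. Magea3 had 0.0921, 0.0880 and 0.0557 CPM in day 0 cKO, which is 4, 4 and 3 counts, and 0.583, 0.656, 0.647 and 0.980 CPM in day 3 cKO (edgeR adjusted p 0.000914 at day 3). Magea10, which lies apart from these copies, had 1.61, 1.36 and 1.30 CPM in day 0 cKO, at least 67.0-fold higher, and 0.641, 1.16, 0.755 and 0.184 CPM in day 3 cKO, where it did not pass the filter. Magea1, 2, 3, 5, 6 and 8 summed to 4.33, 3.08 and 2.5 CPM in day 0 cKO and 9.03, 12.1, 9.33 and 7.78 CPM in day 3 cKO.

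Mageb genes lie in several small groups on the X chromosome. Mageb16 (chromosome X, 79623231 to 79671435) had 0, 0 and 0.0221 CPM in day 0 controls against 3.02, 2.60 and 2.5 CPM in cKO (ratio 382, 68.2 to 15100; edgeR adjusted p 4.31e-07). At day 3 it had 0 counts in controls and 5.13, 7.82, 5.77 and 5.64 CPM in cKO, at least 129-fold higher. Mageb4 (chromosome X, 86250254 to 86305093), known from germ cells, had 0 counts in the 7 control cultures, 3.94, 3.32 and 3.51 CPM in day 0 cKO and 3.32, 4.14, 3.45 and 2.82 CPM in day 3 cKO. The Mageb4 values of the days overlapped, and were at least 170-fold and at least 72.9-fold above control. Mageb18 had 0 counts in control cultures and 0.806, 0.968 and 1.06 CPM, then 2.27, 2.88, 1.78 and 2.94 CPM, in cKO. The pseudogenes Mageb7-ps and Mageb10-ps were detected in cKO as well: Mageb7-ps had 0.875, 1.12 and 1.32 CPM at day 0 and 2.51, 2.42, 2.37 and 1.41 CPM at day 3. Mageb10-ps had 1.59, 1.83 and 1.54 CPM at day 0 and 1.86, 1.56, 0.485 and 2.02 CPM at day 3, each against 0 counts in controls. Mageb3, the coding member on chromosome 2, stayed near the floor with 3, 6 and 5 counts in day 0 controls and 5, 3 and 9 in cKO.

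The Xlr family held most of the members' RNA in controls. Xlr (chromosome X, 53777118 to 53797706), known from lymphocytes and spermatocytes, had 0.881, 0.812 and 0.664 CPM in day 0 controls against 23.5, 24.8 and 21.7 CPM in cKO, log2 fold change 4.88 with SE 0.108 (adjusted p 2.59e-09 by edgeR). At day 3 it had 0.492, 0.780, 1.05 and 0.676 CPM in control against 34.0, 39.0, 31.3 and 39.9 CPM in cKO (log2 fold change 5.56, SE 0.196, edgeR adjusted p 9.9e-07). The groups were well separated at both days. The Xlr transcript matches that of 3830403N18Rik, a gene outside the members, at 96.6% of 495 aligned bases, 26.6% of its length. How reads were split between these genes is uncertain. Xlr3b, a gene known to be imprinted with expression from the maternal X in brain, had the highest control level per length at day 0, 1.59 RPKM. It had 6.67, 6.76 and 4.65 CPM in day 0 controls against 22.4, 19.6 and 20.8 CPM in cKO, log2 fold change 1.80 with SE 0.129 (adjusted p 2.91e-06 by edgeR). At day 3 it had 11.2, 3.12, 13.9 and 14.2 CPM in control against 23.7, 26.8, 22.1 and 25.1 CPM in cKO (log2 fold change 1.21, SE 0.382, edgeR adjusted p 0.0293), a call that was lost without cKO replicate 1, cKO replicate 2 or control replicate 1 (adjusted p 0.0534, 0.0644 and 0.0611 by edgeR).

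Xlr3c, which lies beyond Xlr4b and Xlr4c from Xlr3b and in opposite orientation, had 0.0946 RPKM in day 0 controls and 16.9 in cKO, against 1.59 and 5.54 for Xlr3b. In CPM it had 0.147, 0.0812 and 0.221 CPM in day 0 controls against 28.4, 26.8 and 25.2 CPM in cKO, a ratio of 181 (118 to 292; log2 fold change 7.48, SE 0.162, edgeR adjusted p 2.26e-09). At day 3 it had 0.351, 0, 0.186 and 0 CPM in control against 27.7, 33.2, 33.3 and 32.0 CPM in cKO (log2 fold change 7.87, SE 0.461, edgeR adjusted p 9.41e-06). Xlr3b and Xlr3c have promoter windows identical at 98.3% of 230 aligned bases and transcripts 99.2% identical over 1186 aligned bases. The split of reads between them is therefore uncertain, and the difference between their fold changes was not tested. Xlr3a lay between, with 3.59, 2.54 and 3.03 CPM in day 0 controls against 16.5, 14.6 and 14.7 CPM in cKO (log2 fold change 2.32, SE 0.121, edgeR adjusted p 4.87e-07). At day 3 Xlr3a had 4.57, 1.84, 3.28 and 6.83 CPM in control against 13.3, 13.2, 15.3 and 11.9 CPM in cKO, without overlap (log2 fold change 1.71, SE 0.336, edgeR adjusted p 0.00336). The summed Xlr3 copies went from 10.4, 9.38 and 7.90 CPM to 67.3, 61.0 and 60.7 CPM at day 0, and stood at 16.2, 4.96, 17.4 and 21 CPM against 64.7, 73.1, 70.8 and 69.0 CPM at day 3.

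Xlr4b, another gene with known imprinted expression, had 0.357, 0.0203 and 0.0886 CPM in day 0 controls against 7.99, 7.26 and 9.42 CPM in cKO (ratio 53.6, 35.2 to 85.9). At day 3 it had 0.351, 0.111, 0.124 and 0 CPM in control against 8.91, 11, 9.28 and 12.9 CPM in cKO, and both differences were called (edgeR adjusted p 2.6e-06 and 3.14e-05). Xlr4a had 0.923, 0.589 and 0.221 CPM against 7.85, 7.66 and 7.42 CPM at day 0 (log2 fold change 3.71, SE 0.295) and 0.351, 0, 0.0620 and 0.541 CPM against 7.81, 9.89, 9.01 and 9.07 CPM at day 3 (log2 fold change 5.26, SE 0.584). Control Xlr4 levels varied several-fold between libraries, and the cKO libraries were within a narrow band. Xlr5a, Xlr5b and Xlr5c were called at day 0 at cKO means of 1.99, 1.18 and 0.823 CPM against a single count over their controls, and did not pass the filter at day 3. The 6 Xlr pseudogenes stayed at 6 or fewer counts in every culture library.

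**Figure D3:**
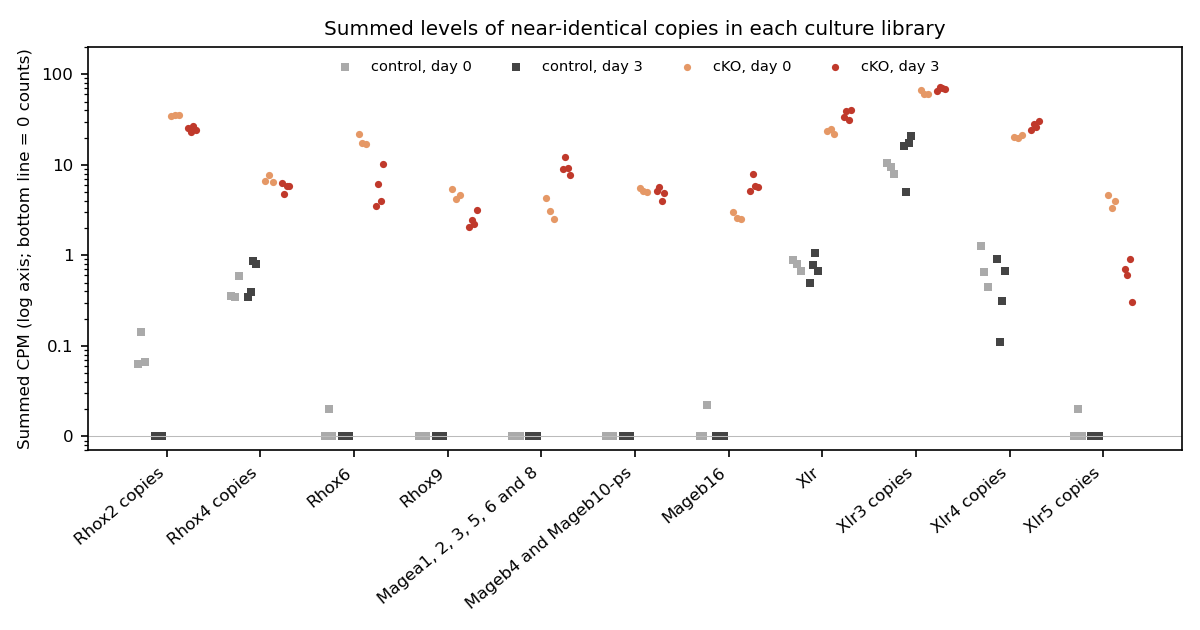
Summed CPM of near-identical copies, on a log axis, in every culture library, with controls as grey and black squares and cKO as orange (day 0) and red (day 3) circles; the bottom line is 0 counts. Rhox2 copies stand at 34.4 to 35.5 CPM in day 0 cKO and 22.9 to 26.9 in day 3 cKO, and the Xlr3 controls, at 4.96 to 21 CPM, are the closest to their cKO libraries.

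Day 3 was compared with day 0 within cKO cultures for the 35 members that passed the filter of that fit; day, BMP2 and count table change together in this comparison. Of the 35, 8 were called higher and 9 lower, where 32.4% of 14909 genes were called higher and 29.8% lower. Higher were Magea2, Magea3, Magea5, Magea8, Mageb16, Mageb18, Mageb7-ps and Xlr, with log2 fold changes from 0.51 (Xlr, SE 0.128, edgeR adjusted p 0.00375) to 3.02 (Magea3, SE 0.384, edgeR adjusted p 0.000227). Lower were Rhox2a, Rhox2b, Rhox2c, Rhox2f, Rhox6, Rhox9, Xlr5a, Xlr5b and Xlr5c, among them Rhox6 at −1.79 (SE 0.324, edgeR adjusted p 0.000819) and Xlr5b at −3.14 (SE 0.739, edgeR adjusted p 0.00633). No Rhox member was called higher and no Magea or Mageb member lower in this fit. Magea10 was at −1.14 (SE 0.457, edgeR adjusted p 0.0598) and was called lower without day 3 cKO replicate 2 (−1.56) or 4 (−0.83), and Mageb3 was called lower without the filter (adjusted p 0.00813 by edgeR), so the direction by family did not hold under these alternatives. Within the Rhox2 copies, Rhox2a fell by 1.25 on the log2 scale (SE 0.21, edgeR adjusted p 0.000513), while Rhox2d at 0.21 (SE 0.125) and Rhox2g at 0.29 (SE 0.262) were not called. The Xlr5 sum went from 4.65, 3.37 and 3.95 CPM to 0.699, 0.606, 0.917 and 0.306 CPM. 4 of the 17 calls were lost when 1 cKO library was left out. The call of Magea2 was lost without day 0 replicate 2 or 3, and that of Xlr5c without day 0 replicate 1. That of Mageb7-ps was lost without day 0 replicate 1 or 2 or day 3 replicate 1, 2 or 3, and that of Rhox2f without any day 0 replicate or day 3 replicate 3.

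**Figure D4:**
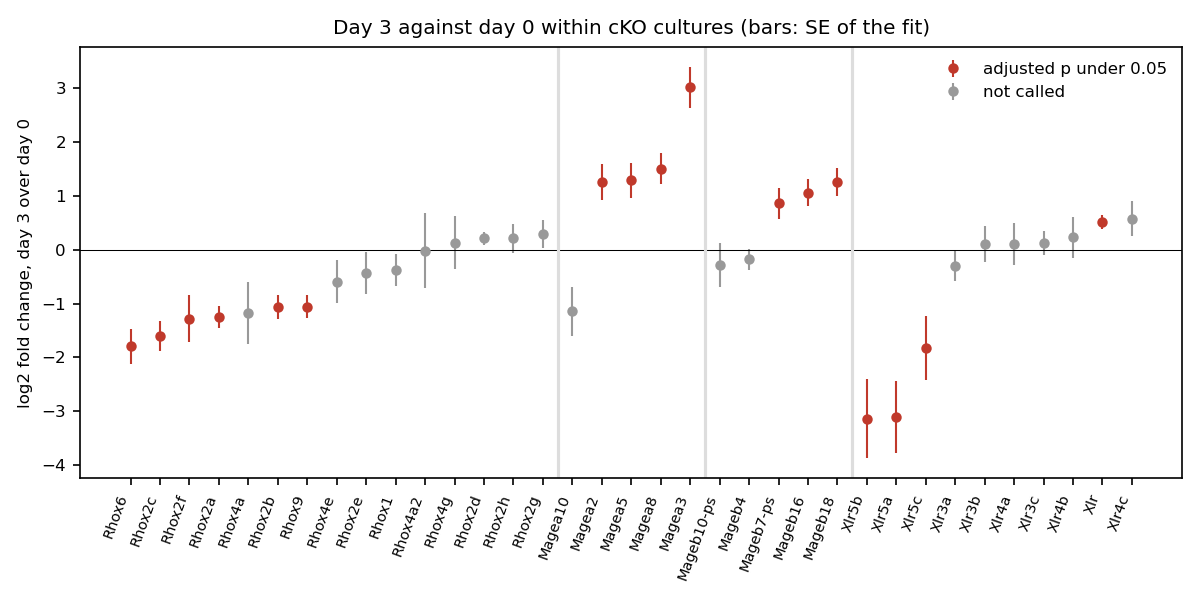
Log2 fold change of day 3 over day 0 in cKO cultures for the 35 members tested, with the SE of the fit as bars; red points have an adjusted p under 0.05. The called Magea and Mageb genes lie above 0, at up to 3.02, and the called Rhox genes lie below, down to −1.79. Over all 14909 genes of the fit, 32.4% were called higher and 29.8% lower. The direction by family did not hold under every alternative.

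In control cultures the same comparison called 0 of 35 members higher and 1 lower (28.1% higher and 28.8% lower of 14909 genes). That gene was Rhox2d, whose 3, 2 and 2 counts at day 0 were followed by 0 in the 4 day 3 controls. The genotype by day interaction called 0 members in either direction (9.94% higher and 6.89% lower of 14909 genes), and 2 had an unadjusted p under 0.05, Rhox2d and Xlr. For Xlr the interaction was 0.66 (SE 0.24, edgeR adjusted p 0.0775). 18 of the 35 members had 0 counts in all 7 control cultures, so an interaction on the log scale could not be estimated for them. 

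In cartilage 0 of 28 members passed the filter, beside 3.15% higher and 3.04% lower calls over the 8793 genes that did. Without the filter, 6 of 28 were called higher and 0 lower, against 2.18% and 2.19% of 23911 genes. Rhox6 had 0 counts in the 4 controls and 15, 5, 10 and 18 counts in cKO, at least 19.2-fold higher (edgeR without filter, adjusted p 2.43e-14). Rhox5 (chromosome X, 37804842 to 37808876), a homeobox gene of Sertoli cells and placenta also called Pem, was singled out after its values were seen. It had 0 counts in controls and 18, 7, 18 and 35 counts in cKO, at least 31.2-fold higher (edgeR without filter, adjusted p 6.42e-23). Rhox5 and Rhox6 had counts in cKO alone and were tested here without the filter, so these p-values are a description. Both passed the filter in fits without cKO replicate 2 or without any single control library. There the edgeR adjusted p was 6.26e-05 to 0.000749 for Rhox5 and 0.000254 to 0.00253 for Rhox6. Both genes passed through their cKO libraries, with 0 counts in every control, so these p-values are a description too. In the cultures Rhox5 had 0 counts in all 7 cKO libraries and 0 to 2 counts in controls, at far greater depth. The cartilage libraries read the 3′ ends of transcripts and the culture libraries whole transcripts, in tables with different counting, and the part of this in the difference was not tested.

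The other calls in cartilage were Xlr, Rhox10, Xlr4b and Xlr3c. Xlr had 1, 0, 0 and 1 counts in control against 11, 4, 9 and 10 in cKO (ratio 20.4, 5.23 to 175; edgeR without filter, adjusted p 3.01e-07). Rhox10 had 0 counts in control against 2, 1, 8 and 2 (adjusted p 0.00673 by edgeR without filter), with most of them in 1 female library. Xlr4b had 0, 0, 0 and 1 counts against 3, 1, 7 and 4 (ratio 18, 2.77 to 757; adjusted p 0.0123 by edgeR without filter). Xlr3c had 0, 6, 1 and 4 counts in control against 7, 10, 3 and 10 in cKO, with overlapping groups (ratio 3.27, 1.59 to 7.23; adjusted p 0.0327 by edgeR without filter). Whole-number cartilage counts put the control reads of the Xlr3 copies on Xlr3c and Xlr3a, where the cultures put them on Xlr3b and Xlr3a. The summed counts of the 28 members were 3, 8, 1 and 6 in controls and 78, 43, 76 and 99 in cKO.

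**Figure D5:**
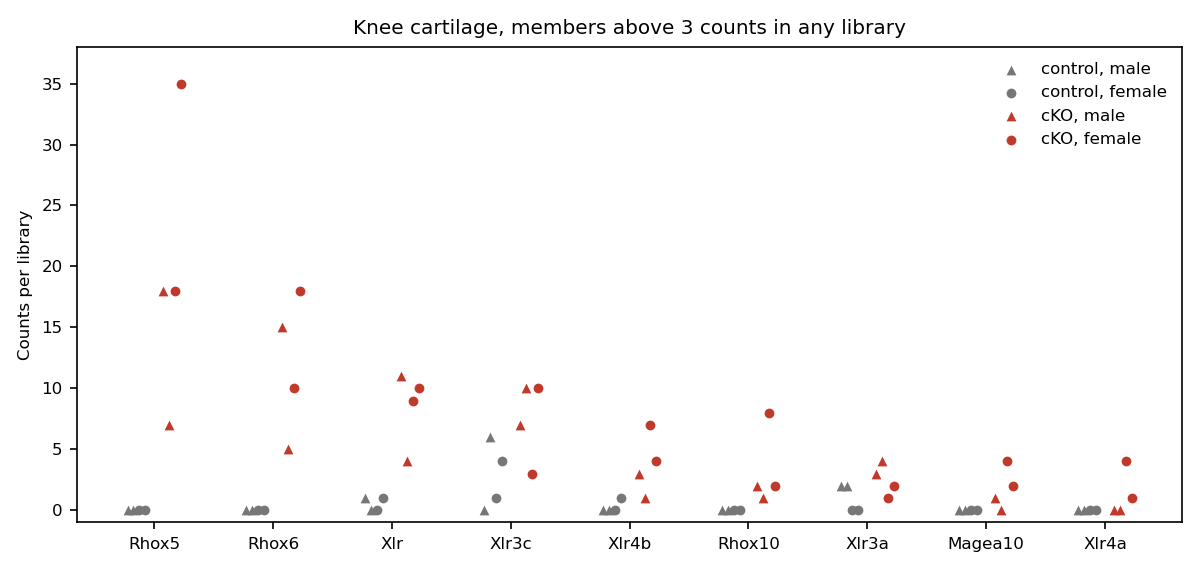
Counts per cartilage library, on a linear axis, of the 9 members above 3 counts in any library, with triangles for male and circles for female samples. Rhox5 and Rhox6 are at 0 in the 4 controls and at 5 to 35 counts in cKO, and the Xlr3c groups overlap.

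The estimated cartilage counts, an alternative table of the same libraries, gave more counts to the duplicated genes. There 6 members exceeded 3 counts in at least 1 control library and 33 in at least 1 cKO library. Xlr had 5, 2, 0 and 7 counts in control against 79, 84, 59 and 73 in cKO (log2 fold change 4.63, edgeR adjusted p 9.05e-07). Xlr4a had 0, 0, 1 and 0 against 34, 21, 27 and 25 (log2 fold change 6.39, edgeR adjusted p 1.24e-05). Those were the 2 calls among 4 members tested, with 3.56% of 10872 genes called higher and 3.18% lower; Xlr3c (log2 fold change 1.63, edgeR adjusted p 0.0753) and Rhox8 (0.51, edgeR adjusted p 0.573) were not called. The Rhox2 copies summed to 0 counts in controls and 61, 34, 50 and 64 in cKO, against 7, 2, 4 and 8 in the whole-number table. Rhox5 had 11, 4, 11 and 23 counts in cKO in that table, so it was detected in every cartilage cKO library in both tables.

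Sex touches X-linked genes. In cartilage the difference of the genotype effect between females and males was called for 0 of 28 members without the filter, where 0.0335% of 23911 genes were called higher in females and 0.105% lower. The filtered tables, where few or no members were tested, gave 0.0114% lower in the whole-number counts and 0.0184% higher in the estimated counts. The X inactivation RNA Xist was at 2.25 and 3.41 CPM in control males, 601 and 513 in control females, 400 and 329 in cKO males and 1160 and 1080 in cKO females. In the cultures, whose labels give no sex, the Y-linked gene Ddx3y was at 110 to 155 CPM in 6 libraries (day 0 control replicate 3 and cKO replicate 3, day 3 control replicates 2 and 3, day 3 cKO replicates 1 and 4) and at most 1.06 CPM in the other 8. Rhox6 in day 3 cKO was at 3.50 and 10.2 CPM in the libraries with Ddx3y and 6.11 and 3.99 CPM in those without, so they overlapped. The part of sex in the levels of the members was not tested in the cultures.

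Other cell types could carry these transcripts, and their markers were read beside them. The 6 germ cell markers summed to 4.02 to 5.03 CPM in day 0 controls and 41.1 to 48.6 in cKO, and to 1.76 to 3.53 against 26.3 to 49.5 CPM at day 3 and 3.41 to 14.7 against 70.5 to 98.0 CPM in cartilage. Most of the cKO sum in cultures was Dazl, at 39.4, 30.5 and 37.4 CPM in day 0 cKO, while Nanos2 was at 0 in every culture library and Ddx4 reached 2.95 to 3.21 CPM. Of 5 germ cell markers tested at day 0, 4 were called higher in cKO and 0 lower (33.0% and 31.6% of all genes). At day 3 it was 3 of 4 higher and 0 lower (25.5% and 22.6%). Beside Dazl, Ddx4 (log2 fold change 2.78, edgeR adjusted p 1.5e-06) and Kit (1.74, edgeR adjusted p 2.09e-05) were called higher at day 0. The 5 Sertoli cell markers summed to 1.95 to 3.04 CPM in day 0 controls and at most 1.84 in cKO, and to 2.67 to 3.35 against 1.47 to 5.77 CPM at day 3, where Fshr was at 0 in every library; Inha, a Sertoli cell inhibin subunit, was called lower in cKO at day 0 (log2 fold change −0.98) and not called at day 3 (0.50). The 5 trophoblast markers summed to 17.4 to 19.8 CPM in day 0 controls and 26.9 to 44.4 in cKO, nearly all of it the keratin gene Krt7 (log2 fold change 0.93, edgeR adjusted p 0.00061), and to 1.0 to 2.30 against 0.971 to 1.78 CPM at day 3. Tpbpa was at 0 in all cultures, and Cdx2 and Prl3d1 were at 0 in every control and day 3 library. The 3 leukocyte markers summed to 1.87 to 2.72 CPM in day 0 controls and 3.51 to 4.11 in cKO, to 4.5 to 7.08 against 6.56 to 14.6 CPM at day 3, and to 17.3 to 41.2 against 8.61 to 29.7 CPM in cartilage. Ptprc (1.88, edgeR adjusted p 0.0174) and Cd68 (1.13, edgeR adjusted p 0.000288) were called higher on the log2 scale in day 0 cKO, and Cd68 at day 3 (3.09, edgeR adjusted p 0.000179). The third marker, Lyz2, was not called at day 0 (−0.12, edgeR adjusted p 0.834) or at day 3 (−0.57, edgeR adjusted p 0.176). The 3 endothelial markers summed to 0.954 to 1.15 CPM in day 0 controls and 1.6 to 1.91 in cKO. They summed to 0.248 to 0.946 against 1.29 to 1.46 CPM at day 3 and 54.0 to 100 against 32.7 to 77.8 in cartilage. The 5 skeletal muscle markers summed to 1.41 to 1.68 CPM in day 0 controls and 9.88 to 15.4 in cKO. At day 3 the muscle markers summed to 1.83 to 2.34 CPM in controls and 35.9 to 582 in cKO, and were lowest in cKO replicate 4. The 6 chondrocyte markers summed to 119000 to 126000 CPM in day 0 controls and 44800 to 54400 in cKO. At day 3 their sums were 82700 to 101000 against 1160 to 15700 CPM, and in cartilage 57300 to 87000 against 25300 to 53800. The 4 osteoclast markers summed to 158 to 163 against 72.8 to 86.8 CPM at day 0, 114 to 142 against 99.7 to 377 at day 3 and 124 to 452 against 57.9 to 118 in cartilage. For the 3 fibroblast markers the sums were 2660 to 4170 against 2010 to 2200, 6380 to 8110 against 8860 to 10300 and 30200 to 60000 against 15100 to 37100 CPM. The part of any of these cell types in the members' levels was not tested. Without cKO replicate 4, 28 of 28 members tested at day 3 were called higher, beside 4074 higher and 3734 lower calls over 14159 genes. The limit set by the filter applies to that count too.

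MAGE genes outside the Magea and Mageb clusters, most of which are broadly transcribed, differed in direction at day 0: of 8 tested, 0 were called higher and 7 lower, against 33.0% and 31.6% of all genes. Maged1 was at 542, 532 and 524 CPM in control against 351, 365 and 356 in cKO, and Magel2, an imprinted gene, at 41.5, 39.5 and 37.8 against 3.11, 4.80 and 1.82 (log2 fold change −3.63, SE 0.24, edgeR adjusted p 1.79e-06). At day 3 2 of 6 were higher (Ndn and Nsmce3) and 4 lower (25.5% and 22.6% of all genes), and in cartilage 0 of 6 were called (3.15% higher and 3.04% lower). The median log2 fold change of the list was −0.88 at day 0 and −0.40 at day 3, beside a median over all genes of 0.01 at both days.

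Other X-linked genes known from testis or placenta were read from a list of 23. Of 17 tested at day 0, 15 were called higher and 0 lower (33.0% and 31.6% of all genes). Of 8 tested at day 3, 7 were higher (25.5%), and both genes tested in cartilage were higher (3.15%). Trap1a, a tumour rejection antigen gene, had 0, 0 and 0.0221 CPM in day 0 controls against 20.4, 19.5 and 19.9 CPM in cKO. In cartilage Trap1a had 0 counts in controls and 26.9, 16.6, 9.81 and 24.1 CPM in cKO (at least 36.0-fold higher; edgeR adjusted p 6.61e-05). The limit set by the filter on the members applies to this list too.

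Genes beside the Rhox cluster were called in both directions at day 0. Of the 24 other protein-coding genes within 500000 bases of the ends of the Rhox cluster or inside it, 18 were tested at day 0; 3 were called higher (Cul4b, Gm9 and Upf3b) and 8 lower, against 33.0% and 31.6% of all genes. At day 3 3 of 18 were higher and 1 lower, against 25.5% and 22.6% of all genes. In cartilage 0 of 11 were called, against 3.15% higher and 3.04% lower of all genes. Of 21 factors known to act at germline promoters, 9 were called higher and 6 lower at day 0, beside 33.0% and 31.6% of all genes. At day 3 1 was higher and 6 lower, beside 25.5% and 22.6%. Dnmt1 was among the lower at both days. In cartilage 1 of 17 was higher and 1 lower, beside 3.15% and 3.04%.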

How the data were processed

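For the 14 cultures the tables deposited by day hold estimated counts. For the 8 cartilage samples the authors deposited whole-number counts, used here as the main table, and a table of estimated counts. Estimated counts were rounded to whole numbers before each test. The plan had assumed these 2 cartilage tables the other way round; the table was chosen by its unit. The submitters' processing notes name GRCm38 for the series and, for cartilage, UMI-tools 1.1.1, Trim Galore 0.6.7, HISAT2 2.2.1, featureCounts 2.0.1 and DESeq2 1.34.0; the aligner and counter of the cultures were not given in the sources used here. Culture libraries came from a stranded kit and cartilage libraries from a barcoded 3′ method (BRB-seq), per the labels' protocols. Estimated values of members were not whole numbers in 71.2% (day 0) and 72.8% (day 3) of cases above 0, against 46.7% and 39.0% over all genes, and 54 of 82 members share at least 95% of at least 300 transcript bases with another member.

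Differences were tested by quasi-likelihood in edgeR 4.0.16 (R 4.3.3). Libraries were scaled by TMM, low genes were removed by filterByExpr (minimum 10, minimum total 15), and Benjamini-Hochberg adjustment covered every gene in the fit. Calls are at adjusted p below 0.05. Each genotype effect was fitted on its own samples, with sex in cartilage; 14 cultures in 4 groups gave the day effects and the interaction. Alternatives were DESeq2 1.42.0, no filter, the replicate block, other samples or tables, and leaving out each library. The test was checked on simulated data. Gene models were GENCODE on GRCm38; promoters were RefSeq GRCm38.p6. No label names separate animals. Members and lists were chosen with earlier results of these data known. Per family, up to 6 called members, ordered by number of calls and mean CPM, are given in every culture library.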

Additional observations from a re-analysis of the deposited data

Results flagged for a closer look

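Of 41 groups of 4 libraries examined among the members, 1 held a library that stood apart from the other 3. Mageb7-ps, a pseudogene of the Mageb family, was at 1.41 CPM in replicate 4 of the day 3 cKO cultures, while the other 3 cKO libraries were at 2.37 to 2.51 CPM. The gap was 0.879 of the group's range, above Dixon's critical value at the 0.95 level, which chance passes in about 1 of 20 groups. The same library had the lowest Col2a1 level of the 14 cultures, 750 CPM.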

How the results depend on the processing

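Of 995 alternative values for 83 single-gene results, 976 kept direction and side of the threshold, 17 lost the call and 2 reversed. Both reversals were of Rhox4b at day 0, which was not called: −0.34 without cKO replicate 1 and −0.05 without control replicate 2, with leave-one-out values up to 0.59. In cartilage 0 members were called with the filter, 6 without it and 2 with estimated counts, and 0 to 2 when 1 library was left out; those 2 were Rhox5 and Rhox6, without cKO replicate 2 or without any 1 control library, which lets more genes pass the filter. The cartilage fits with 1 library left out called 200 to 297 genes higher and 162 to 333 lower, of 8956 to 9042. Leaving out 1 library gave 39 to 41 called members at day 0 and 25 to 31 at day 3. Calls over all genes were then 4666 to 4963 higher and 4440 to 4773 lower at day 0, of 15747 to 16014. At day 3 they were 3059 to 4074 higher and 2635 to 3734 lower, of 14053 to 14288. Between days it gave 15 to 20 members in cKO, 0 to 2 in control and 0 to 1 for the interaction. All-gene calls there, of 14757 to 15248, were 4303 to 5116 higher and 3986 to 4846 lower in cKO. In control they were 3609 to 4825 and 3819 to 4955, and for the interaction 965 to 2326 and 618 to 1725. The sex difference gave 0 members, and the day effect in control was also 0 without the filter. The limit set by the filter applies here too. Dnmt1 ranged from −2.54 to −2.39 at day 0, −1.60 to −1.17 at day 3 and −1.81 to −1.58 in cartilage.

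Detection depended on its definition. Above 10 counts there were 6 members in day 0 controls, 3 in day 3 controls, 0 in cartilage controls and 3 in cartilage cKO. Above 3 counts in every library there were 7, 3, 0 and 3. The estimated cartilage counts gave 6 in control and 33 in cKO.

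Same-numbered samples were not paired by origin in the labels. Their deviations correlated at −0.0375 to 0.222 at day 0, −0.147 to −0.0719 at day 3 and −0.0714 to 0.26 in cartilage. With the replicate number as a block, 39, 26 and 0 members were called at day 0, at day 3 and in cartilage. Over all genes the block gave 4954 higher and 4770 lower calls of 15530 at day 0. It gave 2915 and 2476 of 13924 at day 3, and 279 and 297 of 8793 in cartilage. Between days 8 members were higher and 9 lower in cKO, beside 4630 and 4381 of 14909 genes. In control 1 member was called, beside 4081 higher and 4160 lower genes. The interaction called 0 members, beside 1468 higher and 1022 lower genes. Between days in cKO Rhox2f lost its call (−1.17, edgeR adjusted p 0.0817) and Rhox4a gained a call (−1.84, edgeR adjusted p 0.0228). Day effects in cKO were also lost for Magea2 (1.11 to 1.13), Mageb7-ps (0.72 to 0.87) and Xlr5c (−1.56) with certain libraries left out, and for Mageb7-ps without the filter (0.85). DESeq2 called 39, 26 and 0 members for genotype at day 0, at day 3 and in cartilage. Over all genes it called 4749 higher and 4564 lower of 15530 at day 0. At day 3 it called 3703 and 3314 of 13924, and in cartilage 194 and 163 of 8793. The limit set by the filter applies to the block and DESeq2 counts too. The cause of these shifts was not tested. At cartilage depth 3 counts correspond to 1.59 to 2.73 CPM, above the level of many members in cultures.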
